A study of Mus musculus with 6 samples.

Results

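The pre-mRNA splicing genes described here are the heterogeneous nuclear ribonucleoprotein (hnRNP) genes, the SR protein genes, the SF3A and SF3B subunits of the U2 particle, and the protein genes of the small nuclear ribonucleoproteins (snRNPs). They were chosen by symbol alone, as the probe sets whose platform symbol starts with Hnrnp, Srsf and a digit, Sf3a or Sf3b and a digit, Snrp or Snrnp. Earlier results of these data were known when the choice was made. The rule found 56 genes among the 24704 named genes measured: 20 hnRNP genes, 10 SR protein genes, 9 SF3A and SF3B genes, 6 Sm protein genes and 11 other snRNP protein genes. No filter on low values was applied, so all 56 entered the comparison.

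Splicing removes introns from nuclear pre-mRNA and is carried out by the spliceosome. Its snRNPs each hold a small RNA, a ring of Sm proteins and particle-specific proteins, and recognise splice sites and the branch point. SR proteins bind exons and mostly promote the use of nearby splice sites, while many hnRNPs coat the transcript and often oppose it. Several genes of both families are known to limit their own mRNA through alternatively spliced exons that send it to nonsense-mediated decay.

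RNA came from perfused whole lungs of mice kept in hypoxia for 7 days. Control mice (Nfat5fl/fl) carried floxed alleles of Nfat5, the gene of an osmosensitive transcription factor, and were given the solvent miglyol. The knockout mice, Nfat5(EC)-/-, lacked Nfat5 in endothelial cells after 1 mg of tamoxifen daily on 5 days, so genotype and tamoxifen differed together. Mice of both sexes were treated at 10 to 12 weeks of age and rested for 2 to 3 weeks, and 3 arrays per group, named replicates 1, 3 and 4, were analysed here, where the design text names 4 mice per group. The labels do not name the Cre driver, and no normoxic array was analysed here. Per the design text, lungs with contaminating tissue or a weak expression response to hypoxia had been left out. Endothelial cells are 1 of several lung cell types, and in whole tissue fewer cells of a type and less RNA per cell cannot be told apart.

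Levels are RMA values on the log2 scale, with a lower quartile of 2.02 and a median of 2.97 over all genes, and a change is the knockout mean minus the control mean on that scale. A gene passed at a Benjamini-Hochberg adjusted p under 0.05 from limma over all 24704 genes. Values of single arrays are given in the order of replicates 1, 3 and 4. Nfat5 itself gave 6.65, 6.58 and 6.30 in controls and 4.46, 4.48 and 3.89 in knockouts, a change of −2.23 ± 0.23 (SE, n = 3 per group; adjusted p = 0.0015). Its probes check the labels only if they cover the deleted part. Lung markers were bright in both groups, with Sftpc at a mean of 12.2 in controls and 11.8 in knockouts, and Ager, of alveolar type 1 cells, at 9.78 and 10.4. Control replicate 1 was the 1 array with high Xist (8.22, against 2.03 to 2.37). Mice of both sexes were used, and whether sex had a part in the changes below was not tested.

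The hnRNP and SR protein genes were lower or did not pass, while most snRNP and SF3 genes that passed were higher. Of the 56 genes, 16 fell (28.6%) and 6 rose (10.7%) in the knockout lungs, and 34 did not pass. The lower count was 6 without control replicate 1, 7 without control replicate 3 and 10 without knockout replicate 4, and the higher count was 3 without control replicate 3 or 4. Counts over all genes dropped as well, with 3209 lower at first, 1615 without control replicate 1 and 1491 without control replicate 3. Over all genes, 13.0% were lower, 12.5% higher and 25.5% past the threshold in either direction. These genes were brighter than most, with a median level of 5.17, and among the 12352 genes above the median level 21.6% were lower and 21.6% higher. The share that rose was near that over all genes but below that of genes above the median level. The share that fell was above both backgrounds. Their fold changes centred on −0.26 (median, log2), and those of all genes on 0.04.

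Within the hnRNP and SR protein genes 14 of 30 fell and 0 rose; with limma at an unadjusted p under 0.05, 2 of the 30, Hnrnpl and Srsf9, were higher. Among the other 26 genes 6 rose (23.1%) and 2 fell (7.69%). Their share that rose was near the 21.6% of genes above the median level, of which 21.6% fell. Whether the hnRNP and SR protein genes differ from the other 26 as sets was not tested. The arrays of the groups did not overlap at 31 of the 56 genes, with the knockouts lower at 19 and higher at 12. The shares over all genes were 41.9% in either direction, 20.0% lower and 21.9% higher. Among the 12352 genes above the median level 7303 did not overlap, with the knockouts lower at 3577 and higher at 3726. The share of the 56 genes without overlap was below that of these brighter genes. It was above theirs for lower genes and below theirs for higher genes. The plot of fold changes by gene shows every one of the 56.

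**Figure D1:**
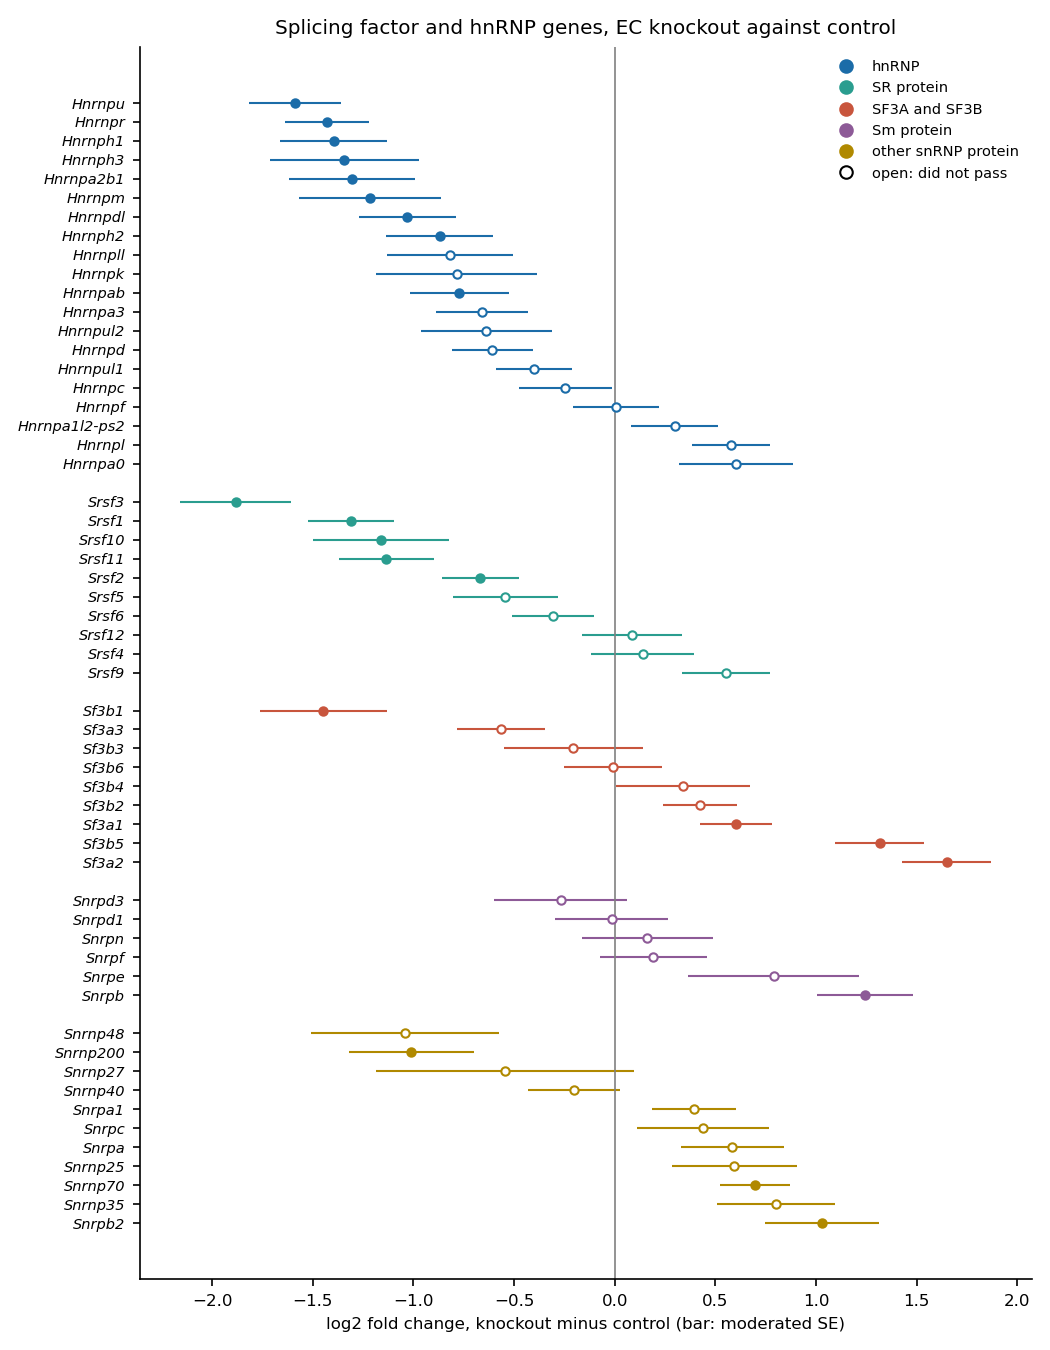
Log2 fold change (knockout minus control, x axis) of each of the 56 genes, grouped by role on the y axis; bars are limma's moderated standard errors, filled points passed the threshold and open points did not. The filled hnRNP and SR protein points all lie below 0, and 6 of the 8 filled points of the SF3, Sm and other snRNP groups lie above it.

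Of the 20 hnRNP genes 9 fell, 0 rose and 11 did not pass; with limma at an unadjusted p under 0.05, 1 was higher, and the median change was −0.78. The steepest fall was that of Hnrnpu, which encodes the scaffold attachment protein of the nuclear matrix. Hnrnpu read 6.91, 6.78 and 6.50 on the control arrays and 5.33, 5.33 and 4.77 on the knockout arrays. Every knockout array lay below every control array, and the change was −1.59 ± 0.23 (SE, n = 3 per group; adjusted p = 0.0028), a 3.01-fold fall. Hnrnpr, a relative of Syncrip that binds RNA through several recognition motifs, had levels of 4.26, 4.12 and 3.86 in controls against 2.84, 2.71 and 2.41 in knockouts. The groups were again apart, with a change of −1.43 ± 0.21 (adjusted p = 0.0029).

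The hnRNP H and F family, which binds runs of guanine, did not move as 1 body. Hnrnph1 had values of 8.12, 7.68 and 7.43 in controls and 6.48, 6.66 and 5.90 in knockouts, a change of −1.40 ± 0.27 (adjusted p = 0.0069). Hnrnph3 (−1.34 ± 0.37, adjusted p = 0.028) and the X-linked Hnrnph2 (−0.87 ± 0.26, adjusted p = 0.041) also fell without overlap of the groups. Hnrnpf gave the same mean of 4.95 in both groups, and its change of 0.01 had a 95% interval from −0.48 to 0.49. The difference between Hnrnpf and its relatives was not itself tested. Near-identical relatives may share probes, which could not be checked here.

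In the hnRNP A, B and D families, Hnrnpa2b1, which encodes the abundant A2 and B1 proteins, stood at 6.36, 6.11 and 6.17 in controls and 4.79, 5.63 and 4.31 in knockouts (−1.31 ± 0.31, adjusted p = 0.017). Knockout replicate 3 lay closest to the controls, and the groups did not overlap. For Hnrnpdl, a relative of Hnrnpd, the control arrays gave 6.32, 6.15 and 5.86 and the knockout arrays 4.65, 5.25 and 5.34 (−1.03 ± 0.24, adjusted p = 0.015). The brightest gene of the group, Hnrnpab, at 8.43, 8.33 and 8.03 against 7.63, 7.80 and 7.04, passed narrowly (−0.77 ± 0.25, adjusted p = 0.047). Hnrnpd, which encodes the AU-rich element binding protein AUF1, missed narrowly (−0.61 ± 0.20, adjusted p = 0.055), so the 2 genes on either side of the threshold differed little.

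Hnrnpm, which binds GU-rich sequence, fell by 1.22 on the log2 scale (SE 0.35, adjusted p = 0.034) although its groups overlapped, with control replicate 4 at 5.92 and knockout replicate 3 at 5.95. Of the hnRNP genes that did not pass, Hnrnpll, Hnrnpk, Hnrnpa3, Hnrnpul2, Hnrnpul1 and Hnrnpc had fold changes from −0.82 to −0.25. Hnrnpl, which binds CA repeats, stood at 0.58 (adjusted p = 0.058), with all knockout arrays above all controls, and Hnrnpa0 at 0.60 (adjusted p = 0.16). The pseudogene Hnrnpa1l2-ps2, at 1.85 in controls and 2.15 in knockouts, was near the lower quartile of all values, where background is not known.

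The hnRNP count depended on single arrays. It was 3 without control replicate 1 or without control replicate 3, 6 without control replicate 4 or knockout replicate 1, 11 without knockout replicate 3 and 5 without knockout replicate 4. Hnrnpu, Hnrnpr and Hnrnph1 passed in each of these settings. Lower calls over all genes dropped too, from 3209 to 1615 without control replicate 1 and 1491 without control replicate 3. Hnrnpdl and Hnrnpa2b1 lost their calls without control replicate 1 or 3, as did Hnrnpab, Hnrnph2, Hnrnph3 and Hnrnpm, which also lost them without other arrays. Control replicate 1 was the highest of the 6 arrays at 14 of the 20 genes, and knockout replicate 4 the lowest at 12.

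Of the 10 SR protein genes 5 fell, 0 rose and 5 did not pass; with limma at an unadjusted p under 0.05, 1 was higher, and the median change was −0.61. Srsf3, the gene of the smallest SR protein and a known regulator of its own splicing, showed the deepest fall of all 56 genes. Srsf3 read 4.74, 4.50 and 4.50 in controls and 2.10, 3.14 and 2.87 in knockouts. The groups lay apart by more than their own spread, and the change was −1.88 ± 0.28 (SE, n = 3 per group; adjusted p = 0.0029), a 3.69-fold fall. Knockout replicate 1, at 2.10, was close to the lower quartile of 2.02.

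Srsf1, the prototype SR protein also known as ASF/SF2, had values of 6.06, 5.88 and 5.67 in controls and 4.58, 4.82 and 4.29 in knockouts (−1.31 ± 0.21, adjusted p = 0.0040). Srsf11 gave 5.19, 5.08 and 4.87 against 4.17, 4.10 and 3.48 (−1.13 ± 0.23, adjusted p = 0.0093). In both genes no array of one group reached the range of the other. Srsf10, which represses splicing when dephosphorylated, as after heat shock, gave 5.58, 5.35 and 4.83 against 4.78, 3.50 and 3.99 (−1.16 ± 0.34, adjusted p = 0.034). Its highest knockout array, replicate 1, came within reach of the lowest control, replicate 4.

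Srsf2, the gene of SC35 and the brightest of the group, stood at 7.34, 7.40 and 7.32 in controls and 6.63, 6.91 and 6.50 in knockouts (−0.67 ± 0.19, adjusted p = 0.032). Its control arrays were nearly equal, with an SD of 0.04. Srsf5 (−0.54, adjusted p = 0.17), Srsf6 (−0.31, adjusted p = 0.32), Srsf4 (0.14, adjusted p = 0.74) and Srsf9 (0.55, adjusted p = 0.099) did not pass. Srsf12 was dim, at 2.11 in controls and 2.20 in knockouts. Without control replicate 1, without control replicate 3 or without knockout replicate 4, 3 SR protein genes were lower, and Srsf3, Srsf1 and Srsf11 passed whichever array was left out. Srsf2 and Srsf10 lost their calls in each of these 3 settings, Srsf2 also without control replicate 4 or knockout replicate 1 and Srsf10 without knockout replicate 3.

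**Figure D2:**
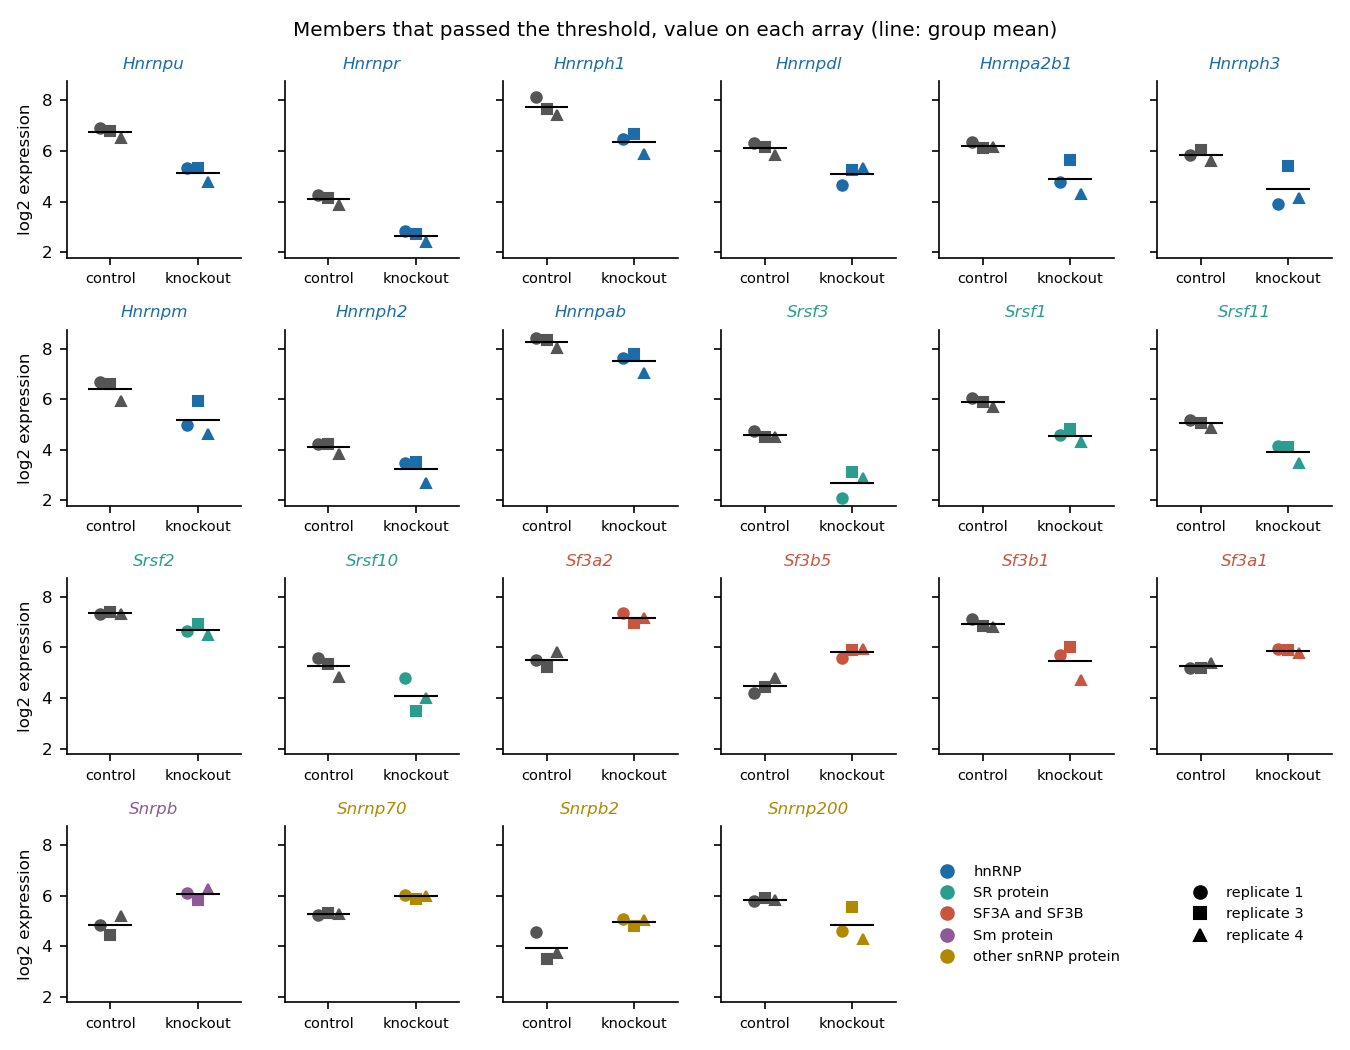
Log2 expression (y axis) of the 22 genes past the threshold on each control (grey) and knockout (coloured by role) array; lines are group means and symbols mark the replicate number, which does not pair mice. The groups overlap in 1 of the 22 panels, that of Hnrnpm.

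The SF3A and SF3B complexes hold the U2 particle on the branch point, and their subunit genes went both ways: 3 of 9 rose, 1 fell and 5 did not pass, with a median of 0.34. Sf3a2, a subunit of the SF3A trimer, rose furthest of all 56 genes. Sf3a2 read 5.51, 5.21 and 5.82 in controls and 7.37, 6.96 and 7.15 in knockouts, a gap wider than the range of either group. The change was 1.65 ± 0.22 (adjusted p = 0.0024), a 3.14-fold rise. Sf3a1, its partner, rose by 0.60 ± 0.18 (adjusted p = 0.037), from 5.20, 5.21 and 5.37 to 5.92, 5.89 and 5.78. The third subunit, Sf3a3, had a change of −0.57 ± 0.22 and did not pass (adjusted p = 0.089).

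Of the SF3B genes, Sf3b5, a small subunit, rose from 4.21, 4.45 and 4.79 to 5.57, 5.92 and 5.92 (1.32 ± 0.22, adjusted p = 0.0044). Sf3b1, the large scaffold that grips the branch point and is recurrently mutated in myelodysplasia, went the other way. It stood at 7.13, 6.84 and 6.81 in controls and 5.70, 6.0 and 4.73 in knockouts (−1.45 ± 0.32, adjusted p = 0.011). Both SF3B genes had groups that did not overlap. Sf3b2, Sf3b3 and Sf3b6 had fold changes of 0.42, −0.21 and −0.01 and did not pass. The means of Sf3b4, 1.37 in controls and 1.71 in knockouts, lay below the lower quartile in both groups.

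Sf3a2 and Sf3b5 passed whichever array was left out. Sf3b1 lost its call without control replicate 1 (adjusted p up to 0.056), and Sf3a1 kept its call in only 1 of the 6 settings with an array left out, that without knockout replicate 4.

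Sm proteins form the ring around most spliceosomal snRNAs. Of the 6 measured genes 1 rose, 0 fell and 5 did not pass, with a median of 0.18; at an unadjusted p under 0.05 from limma the count of lower genes was also 0. Snrpb, which encodes SmB and SmB′ and is known to regulate its own splicing, read 4.82, 4.46 and 5.20 in controls and 6.10, 5.84 and 6.27 in knockouts. The groups were apart, with a change of 1.24 ± 0.24 (adjusted p = 0.0069), and the call held whichever array was left out. Without knockout replicate 1 the count of higher Sm genes was 2. Its imprinted paralogue Snrpn, mainly expressed in brain and heart, had a mean of 2.74 in controls and 2.90 in knockouts (0.16, 95% interval −0.57 to 0.90), below the median of all genes.

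The other Sm genes gave no call. Snrpd3, as bright as Snrpb at a mean of 5.45, stood at 5.81, 5.58 and 5.36 against 4.73, 5.14 and 6.08, so the knockout range enclosed the control range. Snrpe ran from 2.87 to 4.85 in the knockouts around controls of 2.96 to 3.32 (0.79 ± 0.42, adjusted p = 0.21). Snrpd1 and Snrpf, at means of 2.73 and 2.40, changed by −0.02 and 0.19.

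The remaining 11 snRNP genes encode proteins particular to 1 particle, and 2 rose, 1 fell and 8 did not pass, with a median of 0.44. Snrnp70, the U1-70K protein that anchors U1 at the 5′ splice site and the brightest of the group, rose by 0.70 ± 0.18 (adjusted p = 0.020), from 5.23, 5.31 and 5.28 to 6.02, 5.89 and 6.0. The SDs were 0.04 and 0.07, small beside the change. Its U1 partners Snrpa and Snrpc had changes of 0.58 (adjusted p = 0.13) and 0.44 (adjusted p = 0.38). In the U2 particle, Snrpb2, the U2-B″ protein, rose from 4.57, 3.51 and 3.74 to 5.08, 4.79 and 5.04 (1.03 ± 0.28, adjusted p = 0.028), and Snrpa1, the U2-A′ protein, stood at 0.39 (adjusted p = 0.21).

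Snrnp200, the U5 helicase known as Brr2 that unwinds U4 from U6, was the 1 gene of this group that fell. It stood at 5.79, 5.91 and 5.81 in controls and 4.61, 5.57 and 4.30 in knockouts (−1.01 ± 0.31, adjusted p = 0.041), with knockout replicate 3 near the controls. The U5 protein Snrnp40 (−0.20) and the tri-snRNP protein Snrnp27 (−0.55) did not pass. Snrnp27 was low on knockout replicate 1 alone (2.64, against 5.28 and 5.46). Snrnp70 lost its call without any 1 of the control arrays. Snrpb2 lost its call without control replicate 3 or 4 or knockout replicate 1 or 4. Snrnp200 kept its call in 1 setting with an array left out, that without knockout replicate 3.

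The minor spliceosome removes a rare class of introns, and none of the 3 genes of its U11/U12 particle that carry an Snrnp symbol passed; other proteins of that particle, under other symbols, did and are given with the lists below. Snrnp25 stood at 0.59 (adjusted p = 0.20), Snrnp35 at 0.80 (adjusted p = 0.076) and Snrnp48 at −1.04 (adjusted p = 0.14). For Snrnp48 the knockout arrays gave 1.90, 2.23 and 3.99, so replicate 4 alone lay above the controls, which ran from 3.69 to 3.81. Rnu11, the U11 RNA of that particle, was named after its value was seen; its mean was 7.77 in both groups, with a 95% interval of the change from −0.66 to 0.65.

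**Figure D3:**
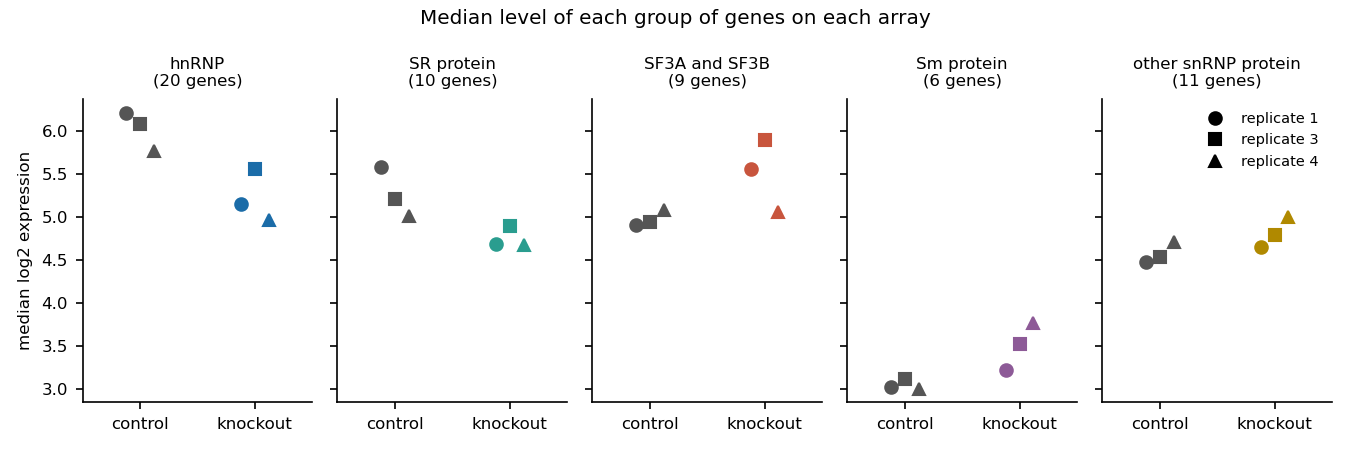
Median log2 expression (y axis) of the genes of each role on each array, controls in grey and knockouts in colour, with symbols for the replicate number. The hnRNP medians lie between 5.77 and 6.21 in controls and between 4.96 and 5.55 in knockouts, and the Sm medians between 3.00 and 3.11 and between 3.22 and 3.77.

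Median levels per array did not overlap between the groups for the hnRNP, SR protein and Sm genes, as the plot of medians by role shows. For the SR protein genes they ran from 5.01 to 5.58 in controls and from 4.67 to 4.89 in knockouts. For the SF3 genes they ran from 4.91 to 5.08 in controls and from 5.05 to 5.89 in knockouts, and for the other snRNP genes from 4.47 to 4.71 and from 4.65 to 5.00, so both overlapped. Over all 56 genes the medians overlapped as well, at 5.09 to 5.22 and 4.84 to 5.28.

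Lists of other splicing genes were counted beside them. They were written from textbook knowledge but with earlier results of these data known, so their counts are not an independent check. Of 162 listed genes in 12 lists 152 were measured, of which 55 fell (36.2%) and 14 rose (9.21%); their median change was −0.32. Without control replicate 1 these counts were 30 and 5, without control replicate 3 they were 30 and 4, and without control replicate 4 or knockout replicate 4 the higher count was 8. Over all genes 13.0% were lower and 12.5% higher, and among genes above the median level 21.6% were lower and 21.6% higher. Those shares are the background for each list below. Among the SR-related proteins 7 of 14 were lower and 0 higher (with limma at an unadjusted p under 0.05 also 0 higher). Son, a large organiser of nuclear speckles, stood at −1.63 ± 0.28 and the U1-associated Rbm25 at −1.44 ± 0.21 (adjusted p = 0.0046 and 0.0029). Among the kinases that phosphorylate SR proteins and the importer Tnpo3, 7 of 10 fell and 0 rose (0 higher also at an unadjusted p under 0.05). The smallest p-values were those of Prpf4b at −1.86 ± 0.29 and Dyrk1a at −1.27 ± 0.21 (adjusted p = 0.0035 and 0.0041), while Tnpo3 (−1.85 ± 0.52) and Clk4 (−1.73 ± 0.44) fell further than Dyrk1a.

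RNA-binding proteins of the hnRNP type that carry other symbols fell at 12 of 22 and rose at 4, with a median of −1.05. Ilf2, of the NF45-NF90 complex, stood at −1.79 ± 0.21 and Tardbp, the gene of TDP-43, at −1.57 ± 0.23 (adjusted p = 0.0019 and 0.0029), while the poly(C)-binding Pcbp4 rose by 1.59 ± 0.20 and Pcbp1 by 1.12 ± 0.22 (adjusted p = 0.0022 and 0.0075). Tissue regulators of alternative splicing fell at 8 of 23 and rose at 1. Qk, the quaking gene, stood at −1.99 ± 0.32 (adjusted p = 0.0037) and Celf2 at −1.35 ± 0.24 (adjusted p = 0.0053). The 1 that rose, the neuronal Rbfox3, had a control mean of 2.58 (0.78 ± 0.21, adjusted p = 0.025).

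Calls in the core spliceosome lists went both ways, as they did over all genes (12.5% higher, 13.0% lower). The Prp19 complex and catalytic step factors fell at 8 of 20 and rose at 0 (1 higher with limma at an unadjusted p under 0.05), with Cdc40 at −1.59 ± 0.22 and the helicase Dhx8 at −1.03 ± 0.19 (adjusted p = 0.0027 and 0.0056). Of 13 tri-snRNP proteins 2 rose, Cd2bp2 (1.22 ± 0.23) and Txnl4a (0.81 ± 0.19), and 1 fell, Prpf31 (−0.83 ± 0.27). Of 12 factors at the 3′ splice site 2 rose, Cherp (0.72 ± 0.19) and Puf60 (0.66 ± 0.21), and 4 fell, among them the helicase Ddx46 (−1.68 ± 0.25) and Rbm17 (−1.07 ± 0.28). The LSm ring of U6, a relative of the Sm ring, had Lsm4 higher (1.02 ± 0.28) and Lsm8 lower (−0.70 ± 0.21) among 7 genes. The tri-snRNP list had 15.4% higher and 7.69% lower and the LSm ring 14.3% each way, shares near or below those of all genes. The 3′ splice site list had 16.7% higher and 33.3% lower.

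Factors that build the Sm ring and mature snRNPs fell at 4 of 16 and rose at 0 (2 higher with limma at an unadjusted p under 0.05). Tgs1, which hypermethylates the snRNA cap, stood at −2.71 ± 0.36 and Prmt5, which methylates Sm proteins, at −1.37 ± 0.29 (adjusted p = 0.0023 and 0.0099), while Smn1, at 0.50 ± 0.18, did not pass (adjusted p = 0.080). Of 5 other minor spliceosome proteins, the U11/U12 proteins Zmat5 (1.17 ± 0.19) and Pdcd7 (0.79 ± 0.21) rose and Rnpc3 (−1.28 ± 0.26) fell. Of 3 exon junction genes Casc3 rose (0.81 ± 0.22). In nonsense-mediated decay, the route that limits several SR and hnRNP mRNAs, the kinase Smg1 (−2.20 ± 0.28) and Upf2 (−1.71 ± 0.28) fell and Smg9 (0.89 ± 0.22) rose among 7 genes. Of these 7 genes 14.3% were higher and 28.6% lower, against 12.5% and 13.0% over all genes. Of the genes named from these lists, Cherp, Puf60, Rbm17, Lsm4, Lsm8, Txnl4a, Prpf31, Pdcd7, Casc3, Smg9 and Rbfox3 lost their calls without control replicate 1 and also without control replicate 3, and most of them without other arrays too.

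**Figure D4:**
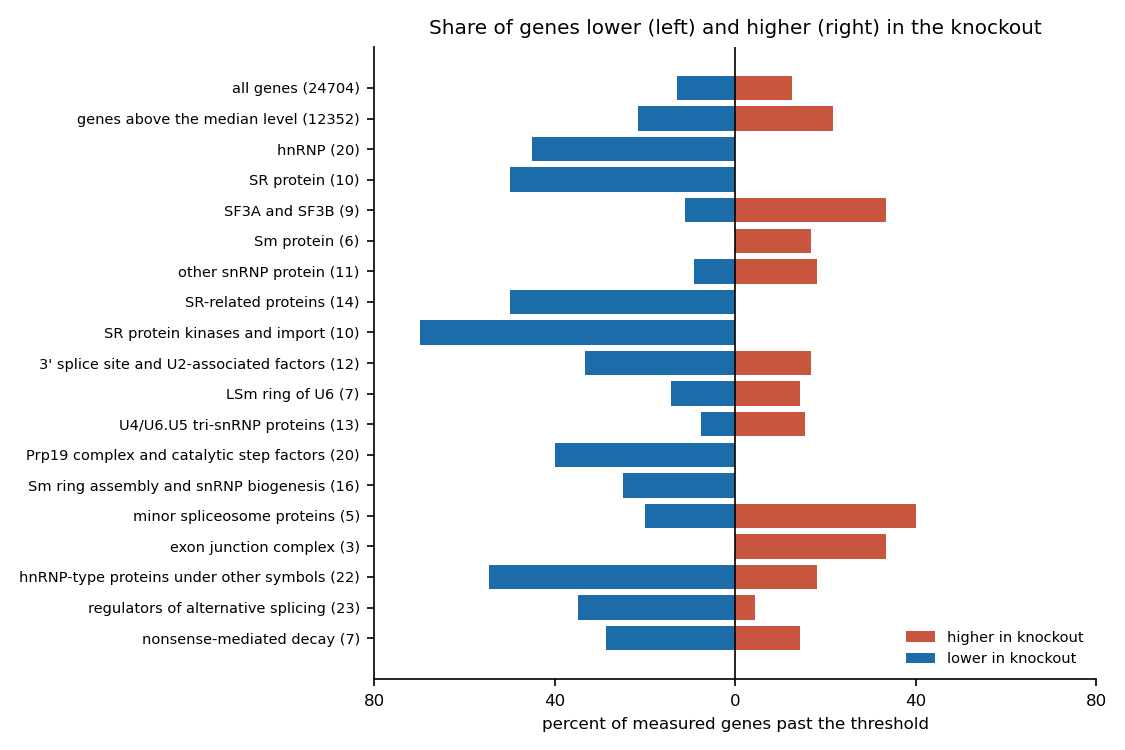
Percent of measured genes past the threshold (x axis), lower in the knockout to the left and higher to the right, for all genes, genes above the median level, the 5 roles and the 12 lists of other splicing genes, with the number measured in brackets. The SR protein kinase list reaches 70.0% lower and the hnRNP and SR protein genes 45.0% and 50%, against 13.0% of all genes and 21.6% of those above the median level.

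Some measures moved with the groups beside these genes, and their part in the result was not tested. On the control arrays the median level of 106 snoRNAs lay between 4.01 and 4.20, and on the knockout arrays between 6.43 and 7.43. Among proliferation markers 3 of 4 measured genes fell, and the log2 of their summed level ran between 7.82 and 8.04 for control arrays and between 6.32 and 6.82 for knockout arrays. Endothelial markers fell at 4 of 8 and rose at 3, with summed levels of 11.5 to 11.8 and 10.7 to 10.9. In controls that sum rested mostly on Cdh5 and Pecam1, which fell by 1.52 and 1.59 on the log2 scale. Vwf, Egfl7 and Cldn5 rose by 1.61, 1.06 and 0.91, so the lower sum does not describe all endothelial markers. T cell and thymus markers rose at 1 and fell at 1 of 9, with summed levels of 5.82 to 6.35 and 5.96 to 6.44 that overlapped, and Rag1, Themis, Dntt and Psmb11 lay below the lower quartile in the knockouts. Alveolar macrophage markers fell at 1 of 4 (7.96 to 8.39 against 6.21 to 7.53), and cardiac muscle markers rose at 2 of 4 (7.38 to 7.76 against 7.88 to 8.76). In controls the macrophage sum rested mostly on Chil3, at 7.88, 7.59 and 7.44. Chil3 read 3.99, 6.49 and 7.18 in knockouts and did not pass (limma, adjusted p = 0.089). Alveolar type 2 markers fell at 2 of 6 (13.1 to 13.2 against 12.3 to 13.0). Alveolar type 1 markers rose at 1 and fell at 1 of 5 (10.3 to 10.8 against 10.8 to 11.3), and airway markers rose at 1 and fell at 1 of 4 (12.6 on each control array against 11.8 to 12.3). In all 3 lists the summed levels of the groups did not overlap. The alveolar type 1 sum rested mostly on Ager, at a mean of 9.78 in controls and 10.4 in knockouts. Ager did not pass (limma, adjusted p = 0.095). The airway sum rested mostly on Scgb1a1, at a mean of 12.5 in controls and 11.9 in knockouts. Scgb1a1 itself did not pass (limma, adjusted p = 0.052). B cell markers rose at 1 of 3, and none of 4 smooth muscle or 3 erythroid markers passed, with limma at an unadjusted p under 0.05 none either.

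Gene span, the distance from a gene's first to last base in RefSeq, also went with the fold change. Across the 56 genes Spearman's rho was −0.31, close to the −0.32 across 19683 protein-coding genes. Among the hnRNP and SR protein genes rho was −0.15 over 30 genes, and among the SF3 and snRNP genes −0.62 over 26. These are descriptions across genes on the same arrays. With the trend in span removed from each array, 9 hnRNP and 5 SR protein genes were lower and 0 higher; Hnrnpm was no longer among the 9, and 1 hnRNP gene outside the first count had entered. Snrpb2 and Snrnp200 were no longer past the threshold either. The median span was 11.7 kb in the hnRNP and SR protein genes and 11.2 kb in the others.

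**Figure D5:**
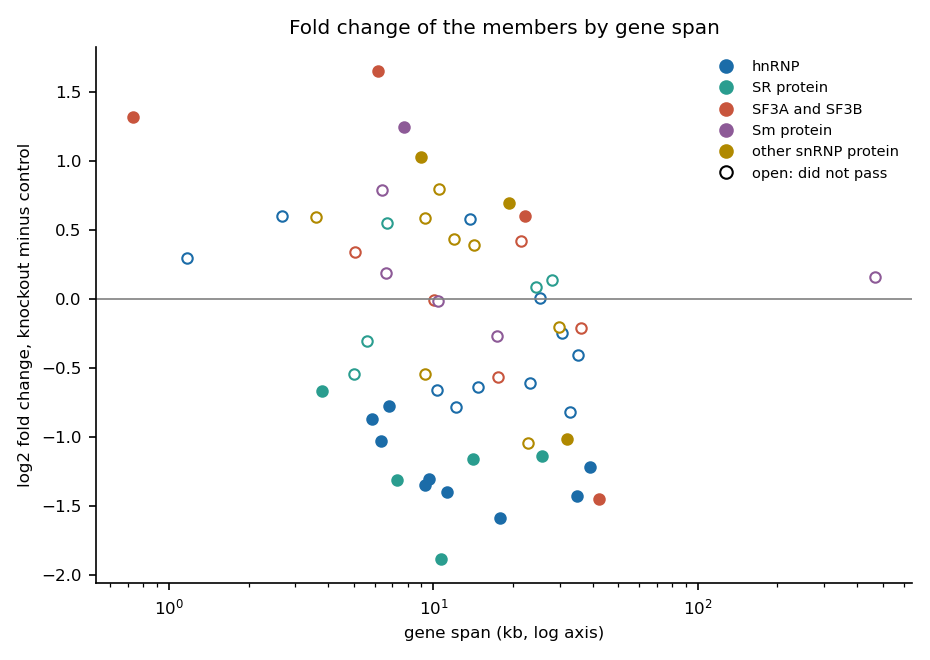
Log2 fold change (y axis) of each of the 56 genes against gene span in kb (log x axis), coloured by role, with filled points past the threshold. The hnRNP and SR protein genes that fell cover spans from 3.78 kb (Srsf2) to 39.2 kb (Hnrnpm), and the shortest gene, Sf3b5 (0.734 kb), rose.

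Since several genes of a role passed in the same direction, the DNA before their start sites was searched. The RefSeq promoter table (GRCm38.p6) matched 49 of the 56 genes, with 66 windows of 250 bases before a start. Windows are shown for 2 genes that fell and 2 that rose and whose RefSeq start lies at the outer edge of the gene. Letters run 5′ to 3′ along the gene's strand, and capitals mark matches, on either strand, to 5 motifs that do not contain each other. The core bound by NFAT proteins was searched as TGGAAA. The core of ETS factor sites was searched as CCGGAAG. The CCAAT box was searched by the letters of its name. The TATA box was searched in the form TATAAA. The GC box of SP factors was searched as GGGCGG. The Srsf3 window, of a gene that fell, is chr17:29032410-29032659, plus strand. The Hnrnpm window, of a gene that fell, is chr17:33685459-33685708, minus strand. The Sf3a2 window, of a gene that rose, is chr10:80798485-80798734, plus strand. The Snrnp70 window, of a gene that rose, is chr7:45395743-45395992, minus strand.
Srsf3: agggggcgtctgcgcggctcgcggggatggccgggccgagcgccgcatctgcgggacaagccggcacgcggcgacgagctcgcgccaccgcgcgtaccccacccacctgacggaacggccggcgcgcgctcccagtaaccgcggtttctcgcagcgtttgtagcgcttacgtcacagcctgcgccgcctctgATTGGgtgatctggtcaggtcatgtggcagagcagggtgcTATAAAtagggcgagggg
Hnrnpm: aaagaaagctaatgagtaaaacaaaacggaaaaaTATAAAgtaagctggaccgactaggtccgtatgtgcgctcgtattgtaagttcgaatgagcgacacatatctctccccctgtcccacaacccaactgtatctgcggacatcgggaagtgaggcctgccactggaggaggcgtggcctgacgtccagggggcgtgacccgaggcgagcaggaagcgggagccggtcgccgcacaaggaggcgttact
Sf3a2: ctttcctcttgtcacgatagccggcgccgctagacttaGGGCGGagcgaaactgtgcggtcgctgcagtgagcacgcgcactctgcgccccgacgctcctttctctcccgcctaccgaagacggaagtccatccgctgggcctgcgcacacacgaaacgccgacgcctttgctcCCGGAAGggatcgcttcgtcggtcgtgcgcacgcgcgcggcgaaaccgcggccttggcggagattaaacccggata
Snrnp70: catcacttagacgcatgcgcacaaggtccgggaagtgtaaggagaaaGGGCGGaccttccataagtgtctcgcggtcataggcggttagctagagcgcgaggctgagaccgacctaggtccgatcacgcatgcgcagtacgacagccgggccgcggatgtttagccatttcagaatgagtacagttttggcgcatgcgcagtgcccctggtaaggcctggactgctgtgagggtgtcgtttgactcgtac

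The Srsf3 window holds a TATA box and, on the opposite strand, a CCAAT box, and the Hnrnpm window a TATA box. The Sf3a2 window holds a GC box and an ETS core, and the Snrnp70 window a GC box. The window of Snrnp200, which fell, also starts at the gene's outer edge but is not shown. It holds a GC box, on the opposite strand, and an ETS core. Among the 66 windows of matched members, 23 belong to 16 genes that fell and 4 to 4 genes that rose. The GC box was in 78.3% of those 23 and 100% of those 4. For the ETS core these shares were 13% and 75%, which is 3 windows in each case. None of the 4 windows shown holds the NFAT core. That core was found in 12.1% of the 66 windows and in 18.6% of all 32851 windows of the same length. The ETS core was found in 20% of hnRNP and SR protein windows and 42.3% of SF3 and snRNP windows, against 6.91% of all. The CCAAT box was found in 50% and 26.9%, against 33.8%, and the GC box in 77.5% and 50%, against 32.7%. The TATA box was found in 10% and 15.4%, against 12.4%. In G and C content the median window had 68.2% and 54.6%, against 52.4%. These shares were not tested, and a match is a run of letters, not a site shown to be bound.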

How the data were processed

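Whole-lung RNA was labelled as biotinylated cRNA and hybridised to single-colour Affymetrix arrays, per the labels' protocols. What the authors deposited is 1 log2 value for each probe set and array, made with RMA per the submitters' processing notes. No source used here gives its version, the genome build or how probe sets were defined. All 6 arrays share their quantiles to within 0.00183, from the values. There are no detection calls. Precision is limited by having 3 arrays a group.

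Of 25428 probe sets 24705 had 1 symbol in the platform table; the brighter was kept for the 1 symbol with 2, which left 24704 genes. Knockout and control arrays were compared with limma 3.58.1 in R 4.3.3 (lmFit, eBayes), two-sided, with p-values adjusted by Benjamini and Hochberg's method across the 24704 genes; an adjusted p under 0.05 passed. Errors of fold changes are moderated standard errors. The labels do not say whether each array holds 1 mouse, so p-values measure only the spread between these arrays, which may be technical. The procedure was tested on simulated data.

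The members and lists were chosen with earlier results of these data known. In each role up to 5 genes of smallest p per direction were given by array, with the brightest of each role, the 2 nearest the threshold and, per other list, up to 2 per direction; other members are named with their counts. The replicate numbers were not shown to pair the samples: deviations of same-numbered arrays correlated at 0.06, −0.01 and 0.00. Alternatives covered the model, the filter, the scaling, the probe sets, gene span, the threshold and each array left out. Entrez identifiers matched RefSeq (GRCm38.p6) for all 56 genes.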

Additional observations from a re-analysis of the deposited data

Results flagged for a closer look

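Signal also appeared in data that the comparisons above did not use. Among the 723 probe sets without a symbol, 102 were higher in the knockout arrays than in the controls and 107 lower, each at an adjusted p under 0.05 from limma over all probe sets. Over the named genes 12.5% were higher and 13.0% lower, and both counts lie near those shares.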

How the results depend on the processing

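Across 16 alternative settings 55 genes were followed, and none of their fold changes reversed. Several settings could not reverse one: the intensity trend, replicate block, level filters, unnamed probe sets and stricter threshold leave fold changes as they were. Averaging probe sets can alter only the 1 symbol with 2. Nearly all of the 55 were also picked because they passed, so a reversal was unlikely from the start. They were Nfat5, the 22 splicing genes past the threshold, Hnrnpd, and the passing genes of smallest p per direction in the other lists. Members that did not pass, apart from Hnrnpd, were not followed. Of the 22 genes, 9 kept their call in every setting: Hnrnpu, Hnrnpr, Hnrnph1, Srsf3, Srsf1, Srsf11, Sf3a2, Sf3b5 and Snrpb. At an adjusted p under 0.01 the count of all genes called, knockout against control, was 2560, with 6 lower and 3 higher among the 56 genes and 29 lower and 4 higher among the other splicing genes, as a stricter threshold must give fewer. With 1 array left out, all genes called ran from 2882 (without control replicate 3) to 6155 (without knockout replicate 3), lower members from 6 (without control replicate 1) to 17, higher members from 3 (without control replicate 3 or 4) to 6, lower genes of the other lists from 30 (without control replicate 1 or 3) to 53 and higher ones from 4 (without control replicate 3) to 20 (without knockout replicate 1). Fewer samples enter those fits. With the replicate number as a block the counts were 6082, 19 lower and 5 higher, and 55 lower and 15 higher for the other genes; Sf3a1 (adjusted p = 0.067) and Puf60 (0.055) lost their calls. The numbers were not shown to pair the samples. The intensity trend, array weights, filters on level, other scaling, averaged probe sets, unnamed probe sets and removal of the span trend moved none of these counts by over 1.5 times, but some ended single calls. The intensity trend ended those of Sf3a1, Hnrnph2, Puf60, Lsm8 and Prpf31 (adjusted p from 0.050 to 0.061), array weights that of Snrnp200 (0.052), and removal of the span trend those of Hnrnpm, Snrpb2, Snrnp200, Puf60 and Lsm4 (0.056 to 0.10).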
